A study of Mus musculus with 238 samples.

Results

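The caudate putamen of old male mice was compared after injections of plasma from young mice and after injections of saline. The libraries were taken by 2 labels, the region caudate putamen and the plasma experiment, which gave 7 of the 238 libraries of the series. Of these, 3 came from mice given young mouse plasma (YMP; mice 73, 77 and 81) and 4 from mice given phosphate-buffered saline (PBS; mice 72, 76, 80 and 84). All 7 were 19-month-old males of the strain C57BL/6JN, with no engineered allele in the labels, and both agents were injected behind the eye (retro-orbitally). The dose and the number of injections are not given in the sources used here, and the controls received saline rather than plasma of old mice. RNA of the homogenised region was sequenced without strand information, so each value is an average over all its cells. The study set out to map how brain regions of old mice respond to young plasma and to dietary restriction.

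The caudate putamen is the main input structure of the basal ganglia and takes part in the choice and learning of movements. Most of its neurons are medium spiny neurons, which release GABA and fall into a direct pathway class, with the dopamine receptor Drd1 and the peptides substance P and dynorphin, and an indirect pathway class, with the dopamine receptor Drd2, the adenosine receptor Adora2a and enkephalin. Bundles of myelinated axons run through the tissue between them, and glial activation and interferon signalling in such tracts are known features of brain ageing.

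Markers of the region were checked first. Ppp1r1b, which encodes the dopamine-regulated phosphatase inhibitor DARPP-32, lay between 1969 and 3560 CPM (counts scaled to a common library total, here the plain total without the TMM factors used for the single-gene values below) in the 7 libraries, against a median of 77.2 CPM in motor cortex of the PBS mice. Drd2 lay between 310.7 and 583 CPM here, and at 2.05 CPM or less in every motor cortex library of the plasma experiment. The markers of medium spiny neurons were therefore present in every library at levels that motor cortex does not reach.

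The libraries held between 4.05 and 15.8 M counts (M, mega), with 2.16% to 3.19% of them from mitochondrial genes. The library of PBS mouse 76 stood apart. On the first principal component, which carried 51.9% of the variance, it lay at 42.4 and the others between -15.1 and 2.84. It held Ttr, the transthyretin mRNA of choroid plexus, at 3230.21 CPM, against at most 4.21 CPM in each of the other 6 libraries. Its summed CPM were 7026 for the choroid plexus list (368 to 402 in the other PBS libraries), 215 for the ependymal list (30.7 to 37.4) and 47731 for the mature myelin list (19103 to 23194). For the lists in the caudate putamen, the medians are therefore also given without it. A second difference concerned PBS mouse 72, whose library held the cortical transporter Slc17a7 at 147.04 CPM, against 0.100 to 19.4 CPM in the others.

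**Figure D1:**
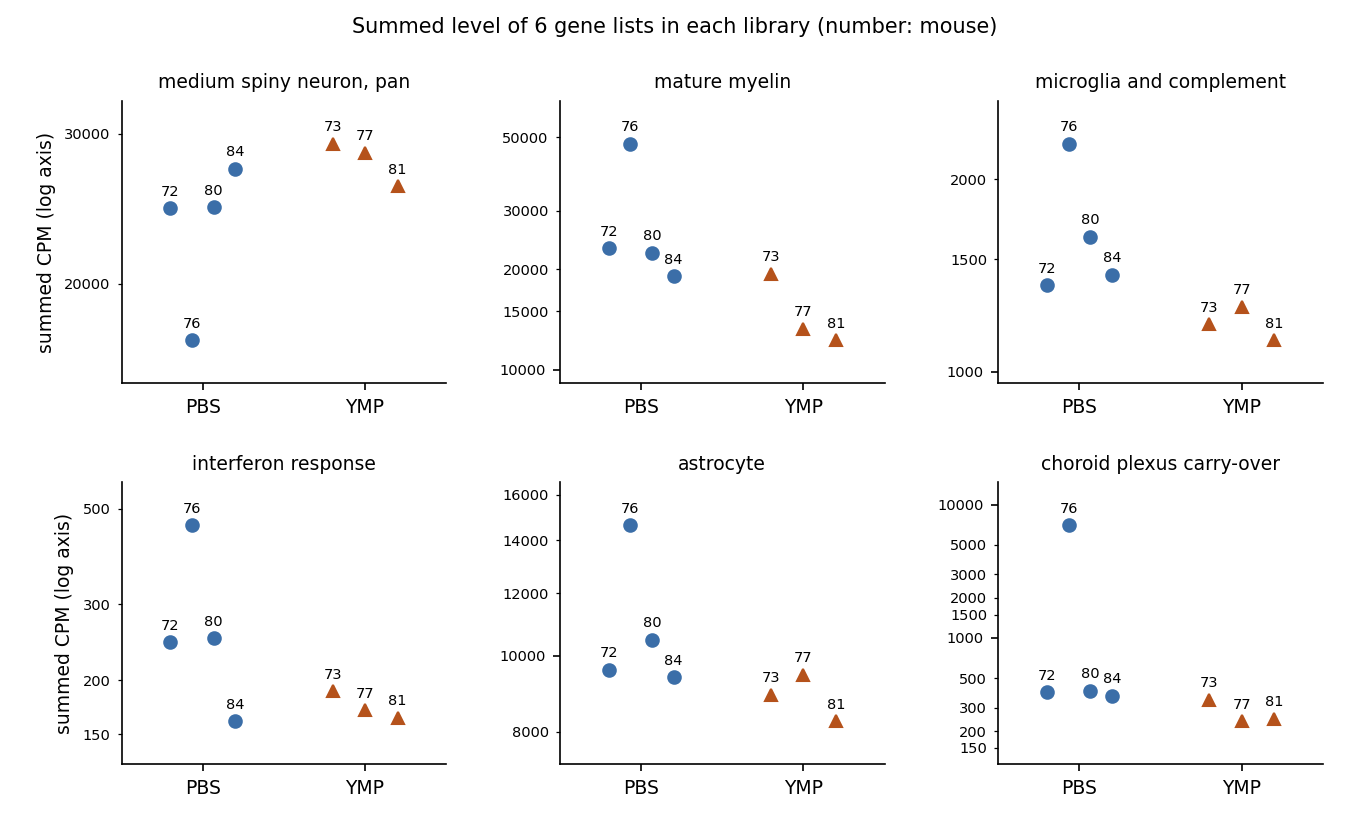
Summed CPM of 6 gene lists on log axes in each caudate putamen library, with PBS as circles, YMP as triangles and the mouse number above each point. PBS 76 is the highest library for choroid plexus (7026), myelin (47731), microglia, interferon and astrocyte genes and the lowest for medium spiny neuron genes (17176).

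Across all genes, genes of myelin, microglia, interferon signalling and astrocytes were mostly lower in YMP mice, and genes of medium spiny neurons were mostly slightly higher, but no single gene passed the test of edgeR. That test (quasi-likelihood, Benjamini-Hochberg adjusted p under 0.05) covered 13539 genes and called 0 of them, with a smallest adjusted p of 0.474. At an unadjusted p under 0.05 there were 475 genes higher in YMP (3.51% of those tested) and 904 lower (6.68%). DESeq2, run as an alternative, called 70 genes (0.599% of the 11683 to which it gave an adjusted p), 15 of them higher (0.128%) and 55 lower (0.471%). Without PBS 76 edgeR called 0 of 13487 genes, with a smallest adjusted p of 0.0773 and 444 higher (3.29%) and 786 lower (5.83%) at an unadjusted p under 0.05. DESeq2 then called 88 (0.83%), 16 higher (0.151%) and 72 lower (0.679%), of which 56 were also among the 70. Counts of genes at a p under 0.05 below are unadjusted and from edgeR, each single p printed is adjusted over all genes tested, and the log2 change is that of YMP against PBS. The labels do not say whether mice shared a cage or a day of injection. An exact rank-sum test of 3 against 4 (35 splits) cannot give a two-sided p below 0.0571, so none was used for single genes.

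**Figure D2:**
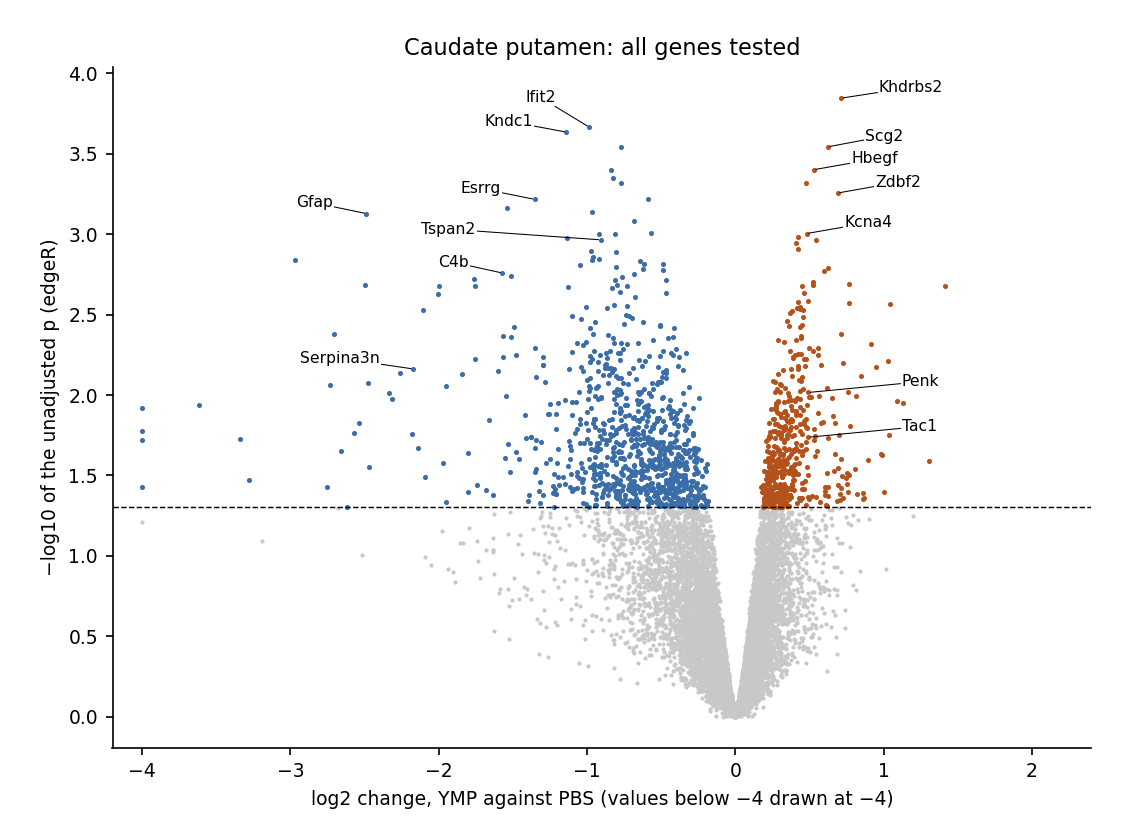
Each point is one of the 13539 genes tested, by its log2 change (YMP against PBS) and the -log10 of its unadjusted edgeR p, with genes under p 0.05 (dashed line) in orange when higher and blue when lower. Changes below 0 reach farther from 0 than changes above it, and 904 genes lie in the blue part against 475 in the orange part.

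Gene lists were described by how many members lay on each side and by the median log2 change, beside the median of all genes tested, which was -0.0086 (-0.0074 without PBS 76). The lists held 811 different genes in all, of which 803 had a row in the table and 755 passed the filter on low counts. For single list members edgeR called none in any list.

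**Figure D3:**
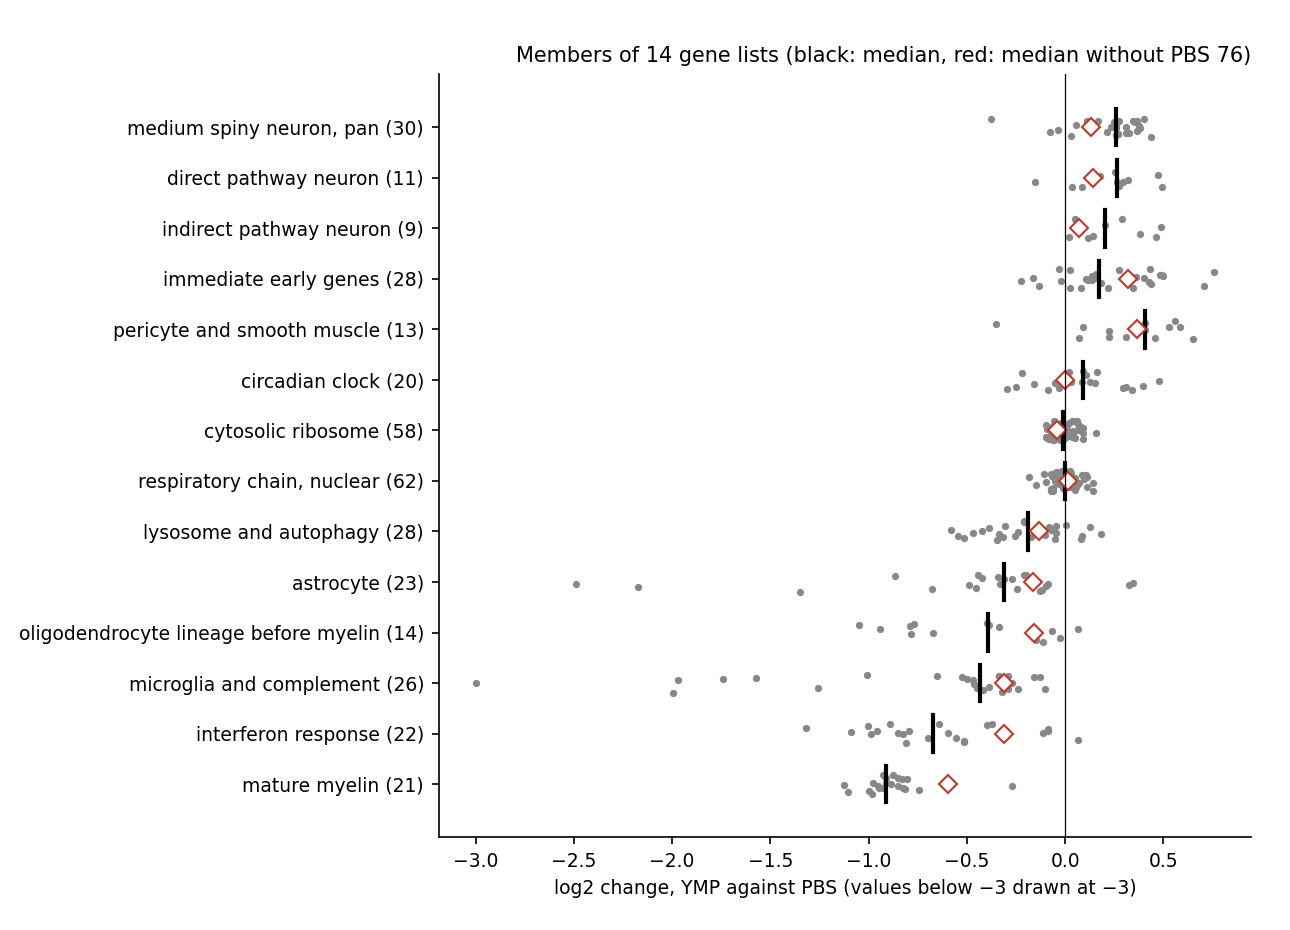
Log2 change (YMP against PBS) of every tested member of 14 gene lists, with the number of members in brackets, the median as a black bar and the median without PBS 76 as a red diamond. All 21 myelin members lie below 0, 27 of 30 members of the medium spiny neuron list lie above 0, and the ribosome members lie between -0.10 and 0.16.

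Among the genes whose YMP and PBS values did not overlap, the 14 with the smallest p that were higher in YMP had log2 changes from 0.41 to 0.76. This separation was part of how they were chosen, as was their p, and over all genes it was met by 720 higher (5.32%) and 871 lower (6.43%). Khdrbs2 (chr1:32172714-32658568, GRCm38), which encodes an RNA-binding regulator of splicing in neurons, had the smallest p. It measured 38.8, 34.8 and 40.7 CPM in YMP mice 73, 77 and 81 and 21.4, 21.04, 25.05 and 25.6 CPM in PBS mice 72, 76, 80 and 84 (log2 change 0.71, SE 0.11, adjusted p = 0.474). Its lowest YMP library was well above its highest PBS library. Scg2 (chr1:79434669-79440120), a granin of dense-core vesicles, measured 485, 472 and 565 CPM in YMP and 327, 286, 355 and 348 CPM in PBS, a log2 change of 0.62 (SE 0.11).

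Other members of this group belong to growth factor signalling, the clock, excitability and protein folding. Hbegf, a ligand of the epidermal growth factor receptor, measured 49.8, 48.4 and 53.5 CPM in YMP and 35.7, 34.2, 31.96 and 38.6 CPM in PBS (log2 change 0.53). Cry1 (chr10:85131700-85185064), a repressor of the circadian clock, measured 73.1, 64.8 and 70.5 CPM against 52.6, 52.9, 45.3 and 49.03 CPM (log2 change 0.48). The spread within each group was small next to the gap between the groups for both genes, and PBS 76 was not the lowest PBS library of either. Kcna4, a potassium channel of the A type that limits firing, measured 233, 215 and 240.1 CPM against 167, 140.4, 179 and 172 CPM (log2 change 0.48). Hsph1, a chaperone of the Hsp110 family, measured 491, 495 and 546 CPM against 414, 369, 357 and 382 CPM (log2 change 0.43). Flrt3, a synaptic adhesion protein, had a log2 change of 0.42, and the orphan receptor gene Gpr27 had 0.41. A pair of imprinted genes, Zdbf2 (log2 change 0.69) and Usp29 (0.54), was also in the group. The last members were Rbm24, an RNA-binding protein (0.63), Baz1a, a subunit of a chromatin remodeller (0.60), Btbd19 (0.53) and Fndc9 (0.76). Without PBS 76 the 14 log2 changes ran from 0.35 to 0.78. DESeq2 called 12 of the 14, and 10 of them without PBS 76 (over all genes it called 0.128% and 0.151% higher). The 14 were chosen by their edgeR p in the same libraries, so these calls are not separate evidence.

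The 14 genes with the smallest p that were lower in YMP had log2 changes from -2.49 to -0.57, and without PBS 76 from -1.87 to -0.53. Gfap (chr11:102887336-102900912), the intermediate filament of astrocytes and a marker of their activation, had the largest difference of the 14. It measured 159, 97.6 and 93.3 CPM in YMP and 482, 1344, 506 and 289 CPM in PBS (log2 change -2.49, SE 0.50, adjusted p = 0.474). PBS 76 was the highest library, and the lowest PBS library, that of mouse 84, was still above all 3 YMP libraries. Without PBS 76 the log2 change was -1.87. Ifit2 (chr19:34550694-34576419), an interferon-induced protein that binds RNA, had the smallest p of the 14, at 8.19, 6.95 and 7.93 CPM in YMP and 15.9, 17.4, 16.1 and 12.1 CPM in PBS (log2 change -0.99, SE 0.17, adjusted p = 0.474).

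Several of the other genes of this group act in neurons or myelinating cells. Kndc1, a neuronal exchange factor for Ras, measured 12.3, 13.2 and 11.9 CPM in YMP and 24.1, 37.2, 21.2 and 27.3 CPM in PBS (log2 change -1.14, SE 0.19). Esrrg, an orphan nuclear receptor, measured 5.57, 6.21 and 5.99 CPM against 9.53, 20.7, 13.7 and 17.2 CPM (log2 change -1.35, SE 0.26). The 3 YMP libraries lay close together for both genes, while the PBS libraries spread over a wide range with PBS 76 at the top. Pex5l, which encodes the HCN channel partner TRIP8b, had a log2 change of -0.77, and Plcl1, a phospholipase C-like protein that binds GABA-A receptors, had -0.97. Cadm4, an adhesion molecule of myelinating glia, had -0.57, and Etnppl, an enzyme of phosphoethanolamine breakdown found in astrocytes, had -0.81. The rest were Sytl2, an effector of Rab27 (-0.92), Cep97, a centrosome protein (-0.59), Ttyh2 (-0.82), Dip2a (-0.84), Cobll1 (-0.77) and Usp54 (-0.69). DESeq2 called all 14, and 12 of them without PBS 76 (over all genes it called 0.471% and 0.679% lower). These 14 too were chosen by non-overlap and edgeR p in the same libraries, so the calls are not separate evidence.

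**Figure D4:**
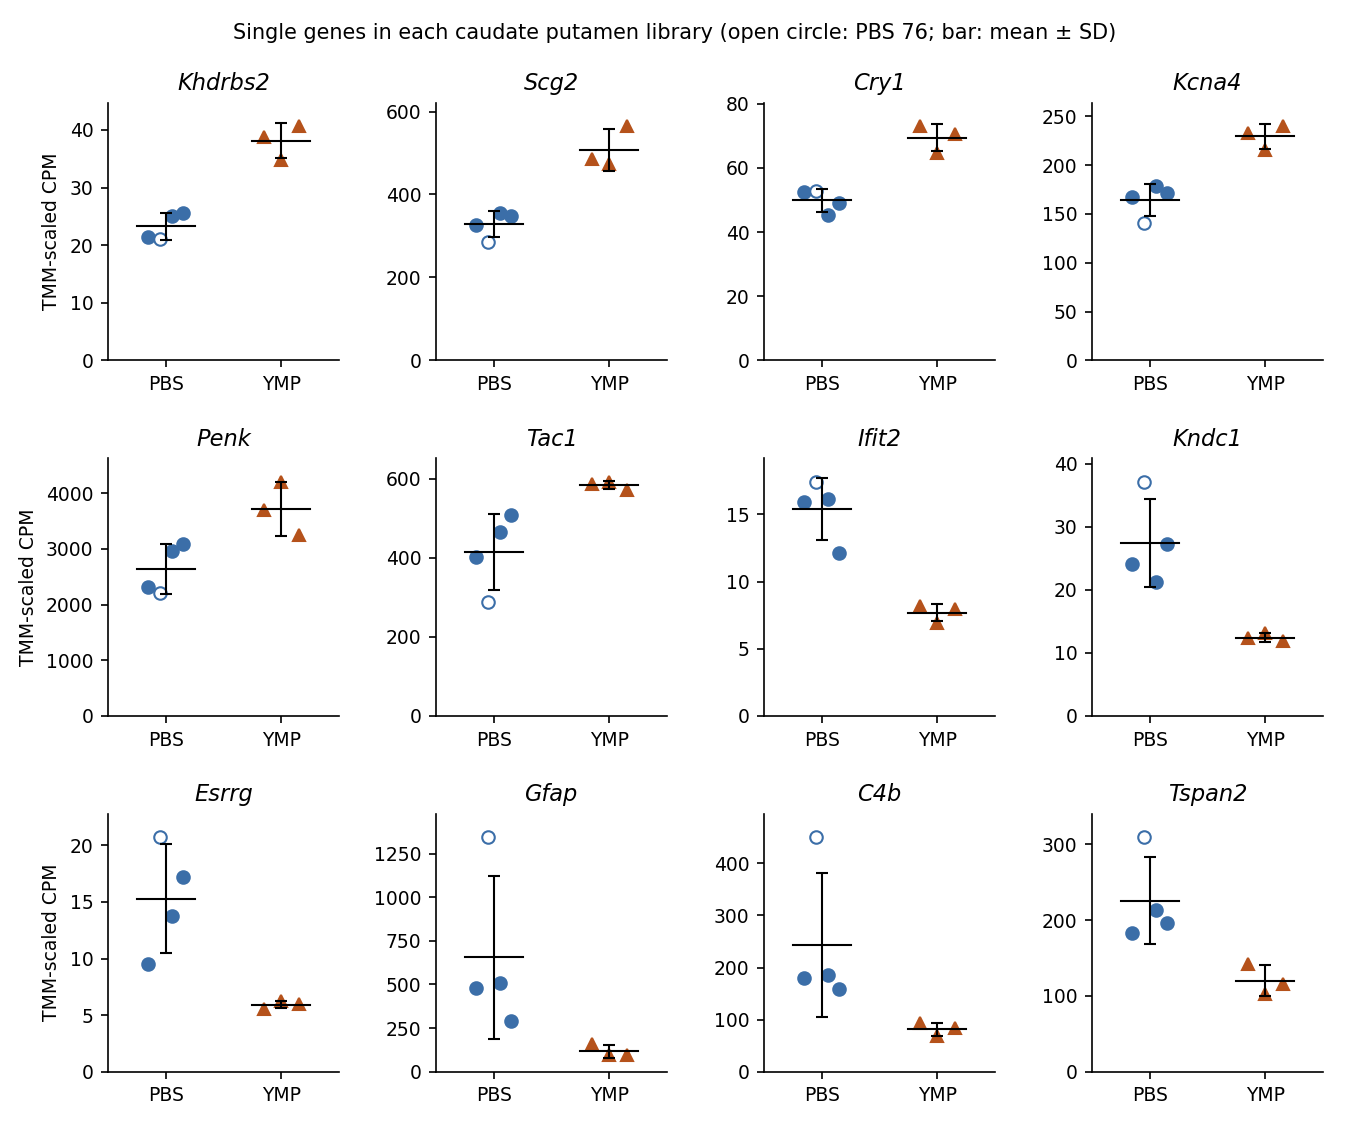
TMM-scaled CPM of 12 genes in each library, with PBS as circles (PBS 76 open), YMP as triangles, and the mean ± SD of each group (n = 4 and 3). No YMP value overlaps a PBS value in any of the 12 panels, and PBS 76 is far above the other PBS libraries for Gfap and C4b.

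Genes of medium spiny neurons were mostly a little higher in YMP mice. Of the 30 genes common to both classes, 27 had a log2 change above 0 (48.2% of all genes tested did), 7 had a p under 0.05 and were higher, and 0 were lower, with a median of 0.26. Without PBS 76, 7 were higher and 1 lower, and the median was 0.13. Arpp21, a cAMP-regulated phosphoprotein of these neurons, measured 2542, 2610.4 and 2479 CPM in YMP and 1722, 1434, 2116 and 2233 CPM in PBS (log2 change 0.44, SE 0.15, adjusted p = 0.474). Gng7, the G protein gamma subunit that couples Drd1 and Adora2a to adenylyl cyclase, measured 1839, 1811 and 1691 CPM against 1476, 1167, 1472 and 1446 CPM (log2 change 0.36, adjusted p = 0.474). The YMP libraries stood above all PBS libraries for both genes, and PBS 76 was the lowest library. Ptpn5, the striatum-enriched phosphatase STEP, had a log2 change of 0.38 (0.25 without PBS 76), and Tmem158 had 0.40 (0.27). Ppp1r1b measured 3428, 3579.7 and 2860.2 CPM in YMP and 2815, 2003, 2839 and 2697 CPM in PBS, a log2 change of 0.35 (adjusted p = 0.481; 0.24 without PBS 76). Gnal, the G protein alpha subunit of the same pathway, had 0.33 (0.22). In bulk tissue, a larger or smaller number of cells of a type and more or less RNA per cell cannot be told apart, and this holds for every list described here.

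For the direct pathway, 10 of 11 genes had a log2 change above 0, 3 of them with a p under 0.05, and the median was 0.26 (0.14, again with 3 genes, without PBS 76). Tac1, the precursor of substance P, measured 588, 593 and 573 CPM in YMP and 402, 287, 465 and 508 CPM in PBS (log2 change 0.49, SE 0.17, adjusted p = 0.474). Pdyn, the precursor of dynorphin, measured 134, 149 and 223 CPM against 97.04, 142, 116 and 135 CPM (log2 change 0.47, adjusted p = 0.481). The Tac1 values of the groups did not overlap, while 1 of the 3 YMP values of Pdyn lay within the range of the PBS values. Sfxn1, a mitochondrial serine transporter, had 0.27 (adjusted p = 0.474). Drd1 itself ran from 206 to 321 CPM in YMP and from 93.7 to 301 CPM in PBS, so that the ranges overlapped (log2 change 0.32, SE 0.34, adjusted p = 0.765, 0.075 without PBS 76). The muscarinic receptor gene Chrm4 had 0.29, the transcription factor genes Foxp2, Ebf1, Isl1 and Zfp521 had 0.26, 0.25, 0.033 and -0.15, Slc35d3 had 0.18 and Eya1 had 0.088, none with a p under 0.05.

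For the indirect pathway, all 9 genes had a log2 change above 0, 2 of them with a p under 0.05, and the median was 0.20 (0.072, with 7 of 9 above 0, without PBS 76). Penk (chr4:4133531-4138819), the precursor of enkephalin, measured 3698, 4208 and 3246 CPM in YMP and 2312, 2208, 2972 and 3091 CPM in PBS (log2 change 0.49, SE 0.15, adjusted p = 0.474). Gpr6, a constitutively active receptor of these neurons, measured 199, 197 and 202 CPM against 145, 102, 159 and 172 CPM (log2 change 0.46, adjusted p = 0.474). All 3 YMP libraries were above all 4 PBS libraries for both genes. Drd2 (log2 change 0.29, adjusted p = 0.54), Adora2a (0.20, adjusted p = 0.683) and Gpr52 (0.38, adjusted p = 0.491) had overlapping ranges. The remaining members Sp9, Plxdc1, Grik3 and Upb1 had 0.021, 0.14, 0.052 and 0.12.

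Receptors and channels of the same tissue went both ways. The kappa opioid receptor Oprk1, the receptor for dynorphin, measured 49.7, 75.2 and 65.8 CPM in YMP and 29.7, 21.7, 32.97 and 49.4 CPM in PBS (log2 change 0.91, SE 0.25, adjusted p = 0.474). Its groups did not overlap, although YMP 73 and PBS 84 lay side by side. Oprk1 belongs to a list of 16 cholinergic, opioid and cannabinoid genes, receptors and also the endocannabinoid enzyme genes Faah, Mgll, Dagla and Daglb. Of the 16, 10 lay below 0, 3 were higher and 2 lower with a p under 0.05, and the median was -0.11 (2 higher, 3 lower and -0.094 without PBS 76). The enzyme gene Faah (-0.95) was 1 of the 2 lower ones. Of 21 genes of dopamine and monoamine handling 17 lay above 0, 4 were higher with a p under 0.05 and 0 lower, and the median was 0.26 (4, 0 and 0.12 without PBS 76). This list shares members with the medium spiny neuron lists, among them Drd1, Drd2, Gng7, Gnal and Ppp1r1b, so it is not a separate result. Its 4 members below 0 were Drd5 (-0.16) and the monoamine enzyme genes Maoa (-0.21), Maob (-0.31) and Ddc (-0.45). Of 24 glutamate receptor genes, 3 were higher with a p under 0.05 and 0 were lower, among them the metabotropic receptors Grm7 (log2 change 0.38, adjusted p = 0.474) and Grm4 (0.41, adjusted p = 0.474). The median of that list was 0.10 (0.042 with 2 higher without PBS 76). Of 20 genes of GABA receptors and handling, 3 were higher and 1 lower (median -0.0086), and without PBS 76 these were 2 and 3 (median -0.045). Of 29 potassium channel genes, 1 was higher (Kcna4) and 4 were lower, with and without PBS 76. Their median was 0.035, and -0.0048 without PBS 76. Kcnc2, a channel of fast-spiking neurons, measured 7.70, 7.94 and 9.98 CPM in YMP and 28.9, 41.8, 23.6 and 9.998 CPM in PBS (log2 change -1.56, SE 0.41, adjusted p = 0.474). Vamp1, a vesicle fusion protein, measured 35.2, 32.3 and 30.2 CPM against 63.1, 141, 79.1 and 39.2 CPM (log2 change -1.30; -0.90 without PBS 76). PBS 76 was the highest library for Kcnc2 and Vamp1, and PBS 84 was the nearest to the YMP libraries. Pvalb, the calcium buffer of fast-spiking interneurons, measured 10.98, 7.20 and 6.55 CPM in YMP and 21.4, 131, 30.8 and 9.81 CPM in PBS, with overlapping ranges (log2 change -2.54; -1.35 without PBS 76). The 18 interneuron genes together had a median of 0.069 with 1 higher and 1 lower at p under 0.05. Without PBS 76 the median was -0.015, with 8 of the 18 above 0, and it was also below 0 without YMP 81, so its sign rests on single libraries. Of 25 synaptic vesicle genes 1 was higher and 2 lower (median 0.016), and 1 and 4 without PBS 76 (median -0.052).

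Genes of mature myelin were lower in YMP mice. All 21 lay below 0 (51.8% of all genes tested did), and the median log2 change was -0.91. Of the 21, 20 had a p under 0.05 (6.68% of all genes were lower at that p). The groups did not overlap for 13 (6.43% of all genes were lower without overlap). DESeq2 called 9 of them, and 12 without PBS 76 (over all genes it called 0.471% and 0.679% lower). Without that library 20 still had a p under 0.05, and the median was -0.60. Mbp, myelin basic protein, measured 8317, 5567 and 4748 CPM in YMP and 9538, 20064, 8866 and 7480.2 CPM in PBS (log2 change -0.89, SE 0.34, adjusted p = 0.476; -0.48 without PBS 76). YMP 73 was the highest YMP library and lay above PBS 84, so the groups overlapped.

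The myelin genes with the smallest p were less abundant than Mbp in CPM. Tspan2, a tetraspanin of oligodendrocytes, measured 142, 102 and 115 CPM in YMP and 184, 309, 213 and 196 CPM in PBS (log2 change -0.91, SE 0.19, adjusted p = 0.474). Apod, a lipid carrier that rises with age in brain, measured 323, 247 and 225 CPM against 498, 905, 499 and 379 CPM (log2 change -1.10, adjusted p = 0.474). Both genes had all YMP libraries below all PBS libraries. Aspa, the enzyme that cleaves N-acetylaspartate for myelin lipids, had -0.98, and Fa2h, which makes the hydroxylated fatty acids of myelin, had -0.82. Of 14 genes of the oligodendrocyte lineage before myelin, 13 lay below 0 and 5 were lower with a p under 0.05, with a median of -0.39 (-0.16 and 4 genes without PBS 76). Myrf, the transcription factor that switches on myelin genes, measured 39.2, 29.04 and 34.7 CPM in YMP and 55.6, 100.5, 51.3 and 79.3 CPM in PBS (log2 change -1.05, adjusted p = 0.474). Bcas1, a marker of newly myelinating cells, had -0.94, and the lineage factors Sox10 and Olig1 had -0.78 and -0.67. The summed CPM of the myelin list was 19434, 13264 and 12267 in YMP and 23194, 47731, 22479.8 and 19103 in PBS, so that YMP 73 and PBS 84 were level. How much fibre tract each piece of tissue held was not measured, and its part in these values was not tested.

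Genes of microglia and complement were also lower. All 26 lay below 0, with a median of -0.43. Of the 26, 15 had a p under 0.05 (6.68% of all genes were lower at that p) and 12 had no overlap (6.43% were lower without overlap). Of the 26, 1 had no count in any YMP library. It passed the filter on low counts through PBS libraries alone, so its direction was fixed by the filter. Without PBS 76, 25 were tested and all lay below 0, 10 with a p under 0.05, and the median was -0.31. C4b, complement component 4, measured 92.9, 67.5 and 83.9 CPM in YMP and 179.8, 450.1, 186 and 159 CPM in PBS (log2 change -1.57, SE 0.36, adjusted p = 0.474). Without PBS 76 its log2 change was -1.10 and its adjusted p of 0.0773 was the smallest of all genes. The 3 other PBS libraries lay close together, and all stood above the 3 YMP libraries. C4b has a near-identical copy, C4a, and reads of the pair may be split between them. Trem2, the microglial lipid receptor, measured 16.2, 20.6 and 17.9 CPM against 20.96, 31.7, 26.2 and 26.1 CPM (log2 change -0.53, adjusted p = 0.474), and the Fc receptor gene Fcgr3 had -0.65. Of 28 lysosome and autophagy genes 8 were lower with a p under 0.05 and 0 higher (median -0.19; 7 and -0.13 without PBS 76), among them the cholesterol exporter genes Npc1 (-0.47) and Npc2 (-0.38) and the protease Ctsl (-0.34). Of 12 genes of MHC class I and its peptide supply (such as Tap1 and Psmb8), only B2m had a p under 0.05 (log2 change -0.56, adjusted p = 0.474). B2m is the light chain of MHC class I. The median of that list was -0.22 (-0.15 without PBS 76).

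Interferon-response genes lay below 0 in 21 of 22 cases, with a median of -0.67. Of the 22, 7 were lower at a p under 0.05 (6.68% of all genes) and 3 were lower without overlap (6.43% of all genes). Without PBS 76, 17 of 21 tested genes lay below 0 and 4 above, 4 were lower with a p under 0.05, and the median was -0.31. Ifit3, which acts beside Ifit2, measured 10.2, 5.21 and 6.61 CPM in YMP and 12.9, 20.2, 13.1 and 9.04 CPM in PBS (log2 change -0.89, adjusted p = 0.474), and Xaf1 had -0.96. Ifit2 had separate groups, whereas PBS 84 lay within the YMP range for Ifit3 and Xaf1. The summed CPM of the list was 189, 171 and 164 in YMP and was 245, 458, 251 and 161 in PBS, so PBS 84 was the lowest of all 7 libraries.

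Many interferon-induced genes carry a promoter element whose core is GAAANNGAAA. The 250 bases before an annotated start site of Ifit2 and of Ifit3 are shown (RefSeq, GRCm38.p6, plus strand, 5′ to 3′). The 2 genes lie close together on chromosome 19, were lower with a p under 0.05 and differ in matches to this core within these windows. Capitals mark each match to the core. The matches lie on the minus strand and so read TTTCNNTTTC in the plus strand printed here. Ifit3 lies at chr19:34583279-34583528 and Ifit2 at chr19:34550444-34550693.
Ifit3: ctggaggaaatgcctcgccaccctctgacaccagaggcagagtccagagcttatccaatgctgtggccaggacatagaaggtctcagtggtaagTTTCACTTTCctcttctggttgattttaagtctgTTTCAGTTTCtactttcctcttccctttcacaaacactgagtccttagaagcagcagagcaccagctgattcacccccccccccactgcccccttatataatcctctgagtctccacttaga
Ifit2: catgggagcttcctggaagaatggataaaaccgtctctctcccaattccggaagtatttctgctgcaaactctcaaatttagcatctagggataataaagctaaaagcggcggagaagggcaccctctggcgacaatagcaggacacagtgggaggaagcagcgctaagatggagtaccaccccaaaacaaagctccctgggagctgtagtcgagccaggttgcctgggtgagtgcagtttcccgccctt
The Ifit3 window held 2 matches and the Ifit2 window held 0. The window of a second annotated start site of Ifit2 (chr19:34550838-34551087, not shown) also held 0. Sequence outside such windows was not searched, so the element may lie elsewhere near Ifit2. Both strands were searched, and overlapping matches were counted. Over all genes of the promoter table, 936 of 27025 (3.46%) held at least 1 match in such a window, as did 320 of 10617 tested genes (3.01%) and 9 of the 18 interferon-response genes found in the table.

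Astrocyte genes were lower for the most part, with 21 of 23 below 0, 8 lower and 1 higher at a p under 0.05, and a median of -0.31 (-0.16 without PBS 76, again with 8 lower and 1 higher). Serpina3n, a protease inhibitor of activated astrocytes, measured 5.08, 4.22 and 4.37 CPM in YMP and 11.7, 47.7, 18.04 and 7.11 CPM in PBS (log2 change -2.17, SE 0.63, adjusted p = 0.474; -1.43 without PBS 76). Clu, the chaperone clusterin, measured 987, 987 and 997 CPM against 1186, 1775, 1260.1 and 1164 CPM (log2 change -0.44, adjusted p = 0.474). The groups were apart for both genes, and the size of the Serpina3n value rests in part on PBS 76. The exception was Mfge8, a bridge for the uptake of cell debris, which was higher at 256, 219 and 232 CPM in YMP and 178, 189, 178 and 197 CPM in PBS (log2 change 0.35, SE 0.09, adjusted p = 0.474). Slc6a11, a GABA transporter of astrocytes, measured 25.4, 22.3 and 27.3 CPM against 34.4, 69.2, 56.7 and 30.1 CPM (log2 change -0.90).

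Immediate early genes, which respond to neuronal activity, had 23 of 28 log2 changes above 0, 4 of them with a p under 0.05, and a median of 0.17 (7 higher, 1 lower and 0.32 without PBS 76, but 0.071 without PBS 80). Egr1 measured 746, 661 and 789 CPM in YMP and 649, 544, 439 and 537 CPM in PBS (log2 change 0.43, SE 0.14, adjusted p = 0.474). Nr4a1 measured 275, 172 and 182 CPM against 169, 140.1, 61.6 and 143 CPM (log2 change 0.71, adjusted p = 0.485), Fosl2 had 0.48, and Klf2 had 0.76 with overlapping groups. PBS 80 was the lowest library for Egr1, Nr4a1 and Klf2, and its summed CPM of the list was 1798 against 2771 to 3355 in the other 6 libraries. Of 20 clock genes, 4 were higher and 1 lower with a p under 0.05 (median 0.089), and without PBS 76 2 were higher and 0 lower (median -0.0023). Besides Cry1, the activator Npas2 had a log2 change of 0.34 and the repressor Per2 had 0.39, while the nuclear receptor Rorb had -0.30. The hour of death is not given in the sources used here. Of 31 heat shock and unfolded protein genes, 3 were higher, Hsph1 among them, and 1 was lower, the small heat shock protein gene Cryab (-0.67), with a median of 0.063. Without PBS 76, 9 were higher and 1 lower, 26 of the 31 lay above 0 and the median was 0.13.

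Pericyte and smooth muscle genes were mostly higher in YMP mice, and endothelial genes went both ways. Of 13 pericyte and smooth muscle genes 12 lay above 0, 3 with a p under 0.05, with a median of 0.41 (0.36 and 4 genes without PBS 76). Kcnj8, a pericyte potassium channel, measured 8.52, 8.94 and 9.36 CPM in YMP and 7.09, 5.92, 6.21 and 4.999 CPM in PBS (log2 change 0.56, adjusted p = 0.474). Rgs5 had 0.46 and Myl9, a smooth muscle myosin light chain, had 0.41. These are genes of low level, and the Rgs5 ranges overlapped. Of 26 endothelial genes 2 were higher and 1 lower, with a median of 0.071 (3, 1 and 0.12 without PBS 76, and a median of -0.011 without PBS 84). The lower one was Tfrc, the transferrin receptor of the blood-brain barrier, at 18.7, 15.6 and 16.04 CPM in YMP and 30.6, 23.5, 21.5 and 31.1 CPM in PBS (log2 change -0.67, SE 0.16, adjusted p = 0.474). Its groups were apart, and without PBS 76 the log2 change was -0.73. Pecam1, an endothelial adhesion molecule, had 0.34.

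Housekeeping groups held few genes with a p under 0.05. Of 58 cytosolic ribosome genes 0 had a p under 0.05, with a median of -0.012 and a range from -0.10 to 0.16. Of 62 nuclear genes of the respiratory chain 0 had a p under 0.05 (median 6.6e-05), as did 0 of 13 mitochondrial genes (median -0.033) and 0 of 31 proteasome genes (median 0.022). Without PBS 76 these 4 lists again had 0 genes at a p under 0.05, with medians of -0.04, 0.016, -0.12 and 0.012. Of 25 cholesterol synthesis genes, 2 were lower and 0 higher (median -0.073; 2, 0 and -0.043 without PBS 76). Of 34 genes of insulin, IGF and growth factor signalling, 1 was higher and 2 lower (median -0.038; 1, 3 and -0.031 without PBS 76), with Igfbp5, a binding protein of insulin-like growth factors, at 29.7, 27.3 and 29.7 CPM in YMP and 35.5, 56.6, 39.98 and 47.1 CPM in PBS (log2 change -0.62, adjusted p = 0.474).

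Genes of neighbouring tissues and of blood were lower in YMP in part, some of them through PBS 76 and some not. Of 11 blood genes 5 passed the filter on low counts. These 5 lay below 0 (-2.62 to -0.00026), 2 with a p under 0.05, with a median of -1.21 (-1.52 without PBS 76). Of the untested ones, 2 had counts in YMP but none in PBS. The summed CPM of the whole list was 77.3, 58.1 and 62.5 in YMP and 84.1, 107, 93.4 and 94.9 in PBS, so the groups did not overlap. The median was -0.41 without PBS 84. The part of blood in the other results was not tested. Only 6 of 16 ependymal and 5 of 14 choroid plexus genes passed the filter on low counts. All of these lay below 0, with medians of -2.18 and -4.03. Without PBS 76 the medians were -0.52 (5 of 6 tested genes below 0) and 0.038 (1 of 3 below 0). For the choroid plexus list, which genes were tested thus depended in part on that library. Enpp2, a choroid plexus and oligodendrocyte gene, measured 328, 212 and 218 CPM in YMP and 380.3, 3223, 377 and 343 CPM in PBS (log2 change -2.09; -0.54 without PBS 76). Foxj1, the transcription factor of ciliated ependymal cells, measured 1.15, 1.24 and 1.68 CPM against 3.66, 25.5, 2.91 and 3.85 CPM (log2 change -2.57; -1.27 without PBS 76). Outside PBS 76, Foxj1 stayed at low levels, but its 3 YMP values were still below its PBS values. Ptgds, a meningeal and oligodendrocyte gene, had -1.02 (-0.57), the fibroblast list had a median of -0.66 (-0.11) and the cortical neuron list -0.82 (-0.57). Without PBS 72 the median of the cortical neuron list was 0.14, so its sign rests on that library. Of 15 neuroblast genes, 3 were higher and 1 lower with a p under 0.05 (also without PBS 76), with a median of -0.0079 (0.054). The lower one was Stmn1, a microtubule regulator (log2 change -0.79, overlapping ranges), and the higher ones included Dlx2 and Dlx5, transcription factors of GABA neurons (0.81 and 0.44). The 8 septal and pallidal genes had a median of -0.18 (-0.0048). The part of these tissues in the glial results was not tested beyond the values given without PBS 76.

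The effect of plasma was then set beside that in 2 other regions of the same 7 mice, the SVZ (so labelled) and the motor cortex. Tests of the difference between effects called 0 of 14378 genes for the SVZ and 0 of 13873 for motor cortex (edgeR). At an unadjusted p under 0.05 the SVZ test had 252 genes with a higher (1.75%) and 380 with a lower (2.64%) change in the caudate putamen, and the motor cortex test had 280 (2.02%) and 398 (2.87%). DESeq2 called 14 and 1 genes. With the mouse as replicate block the counts of edgeR stayed at 0 and 0.

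The medians of the lists are given side by side for the 3 regions, with the genes at a p under 0.05 in the test of the difference. For mature myelin the median was -0.91 in the caudate putamen, -0.22 in the SVZ and -0.14 in motor cortex. The genes with a p under 0.05 for the difference numbered 0 of 21 against the SVZ and 5 of 21, all lower in the caudate putamen, against motor cortex. For microglia and complement the medians were -0.43, -0.22 and -0.054, and for interferon-response genes -0.67, 0.0045 and -0.11. For the difference, 1 of 26 microglia genes against the SVZ and 2 of 25 against motor cortex had a p under 0.05. For interferon-response genes these were 1 of 23 and 1 of 22. All had the lower change in the caudate putamen, as did 2.64% (SVZ) and 2.87% (motor cortex) of all genes. The counts of 1 gene are near that share and are not read as a difference between regions. For the pan medium spiny neuron list the medians were 0.26, 0.39 and 0.017, with 0 of 30 genes at a p under 0.05 for the difference to the SVZ and 2 of 30, higher in the caudate putamen, for that to motor cortex. In the SVZ itself 0 of these 30 had a p under 0.05. For astrocyte genes the medians were -0.31, -0.23 and -0.066, with 8, 9 and 0 of 23 lower at a p under 0.05 within each region. For the difference, 2 of these 23 were lower against the SVZ, and 4 lower and 1 higher against motor cortex. Without PBS 76 the caudate putamen medians were -0.60 for myelin, -0.31 for microglia, -0.31 for interferon, -0.16 for astrocyte and 0.13 for medium spiny neuron genes. The SVZ libraries differed in their tissue content: the summed choroid plexus list ran from 4913 to 33972 CPM of library totals in PBS and from 285 to 536 CPM in YMP, all 14 of its genes were lower in YMP with a p under 0.05, and so were 12 of 17 meningeal fibroblast genes. The part of this in the SVZ medians was not tested.

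Single genes can be followed in the same way. The 14 genes named first as higher in the caudate putamen all had a log2 change above 0 in the SVZ, 5 of them with a p under 0.05 (5.63% of all genes there), with a median of 0.42. In motor cortex 10 of the 14 were above 0, 0 with a p under 0.05 (1.42% of all genes there), with a median of 0.062. Scg2 had log2 changes of 0.62 in the caudate putamen, 0.92 in the SVZ (adjusted p = 0.0548) and 0.06 in motor cortex (adjusted p = 1). Khdrbs2 had 0.71, 0.38 and -0.22. Of the 14 genes named as lower, 11 were below 0 in the SVZ, 2 of them with a p under 0.05 (7.9% of all genes there), with a median of -0.23, and 13 in motor cortex, 0 with a p under 0.05 (1.2% of all genes there) and a median of -0.099. Gfap had -2.49 in the caudate putamen, -0.94 in the SVZ (adjusted p = 0.329) and -0.50 in motor cortex (adjusted p = 1). Ifit2 had -0.99, 0.12 and -0.095. Because these genes were picked for their change in the caudate putamen, their difference tests are not read here.

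**Figure D5:**
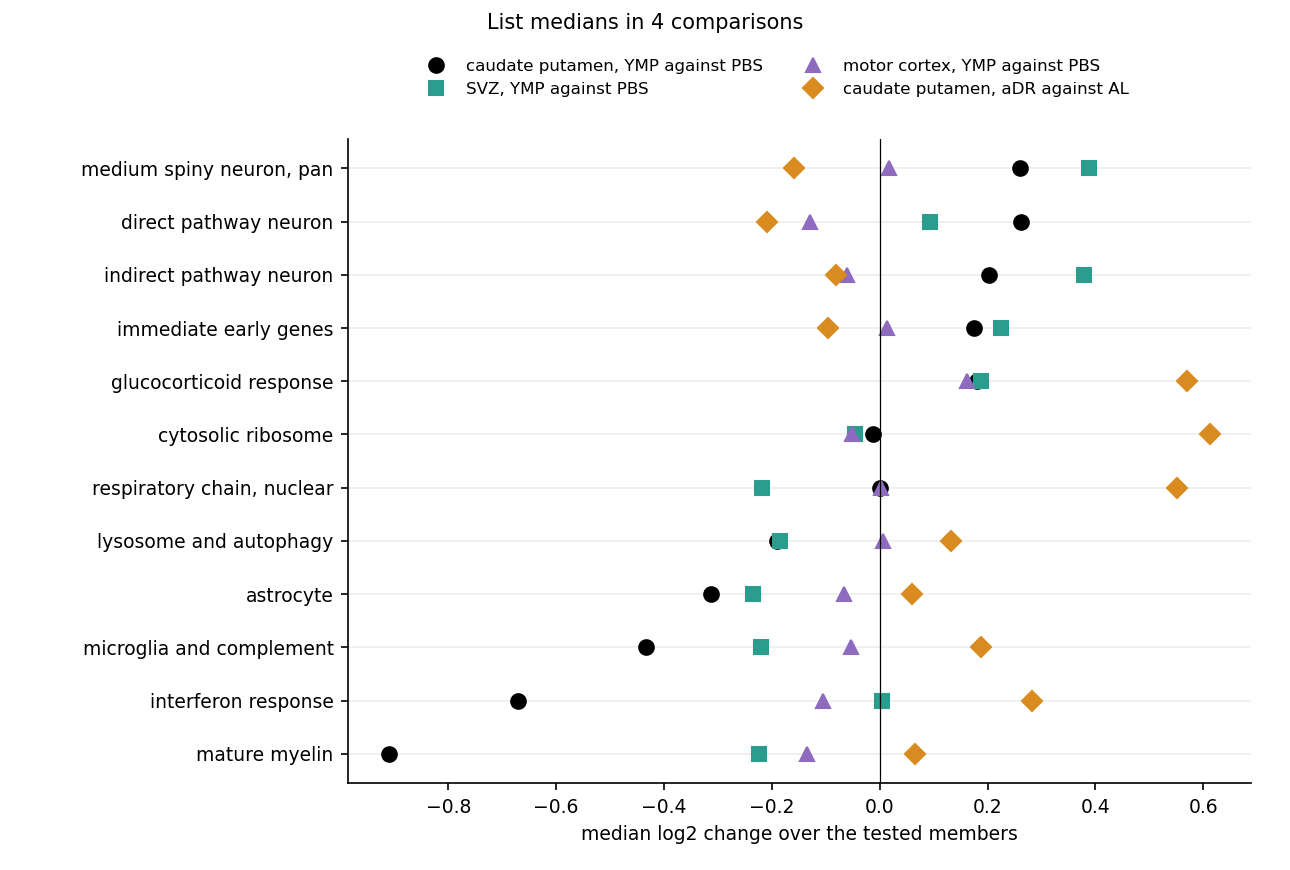
Median log2 change over the tested members of 12 gene lists in 4 comparisons: YMP against PBS in caudate putamen, SVZ and motor cortex, and dietary restriction (aDR) against free feeding (AL) in caudate putamen. The caudate putamen points of the plasma comparison lie farthest below 0 for myelin (-0.91), interferon (-0.67), microglia (-0.43) and astrocyte genes (-0.31). These points include PBS 76. Without it the astrocyte median in the caudate putamen was -0.16, and the SVZ point (-0.23) lies farther below 0.

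In the same region, the diet experiment compared 5 dietary restricted (aDR) with 4 freely fed (AL, ad libitum) females of the same age and strain. Within that experiment edgeR called 2 genes (0.0146%), and at an unadjusted p under 0.05 there were 3.41% of genes higher and 3.86% lower in aDR. Sex and cohort differ between the experiments and cannot be told apart from the treatment. A test of the difference between the plasma and the diet effect called 0 of 14092 genes with edgeR and 76 with DESeq2. At an unadjusted p under 0.05, 731 genes (5.19%) had the higher change under plasma and 1004 (7.12%) the lower one. The ribosome list had a median of -0.012 under plasma and 0.61 under diet, and the nuclear respiratory chain list 6.6e-05 and 0.55. Of the 58 ribosome genes 0 had a p under 0.05 under diet or in the test of the difference, and of the 62 respiratory chain genes 13 had one under diet, all higher, and 4 in the difference. For glucocorticoid-response genes the medians were 0.18 and 0.57. At a p under 0.05, 1 was higher and 2 were lower under plasma (3 and 2 without PBS 76), and 13 were higher and 1 lower under diet. In the test of the difference 7 of 20 had a p under 0.05, all with the lower change under plasma. The plasma median of that list was 0.17 without PBS 76 and 0.029 without YMP 81. For mature myelin they were -0.91 and 0.065, and for medium spiny neuron genes 0.26 and -0.16. In CPM of plain library totals, the summed myelin list ran from 12736 to 32604 in AL and from 15195 to 32552 in aDR, against 12479 to 19313 in YMP and 19014 to 46927 in PBS. Gfap ran from 98.8 to 1044 CPM over the 9 libraries of the diet experiment, against 94.9 to 158 CPM in YMP and 287 to 1321 CPM in PBS. For both measures the diet experiment reached from near the lowest YMP value into the PBS range.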

How the data were processed

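RNA of homogenised caudate putamen was sequenced from 3 YMP and 4 PBS mice. The authors deposited 1 table of raw counts per gene (21076 genes, 238 libraries). The submitters' processing notes name Trim Galore 0.3.7, STAR 2.5.3a, DESeq2 and GRCm38; the counting program and its annotation are not given in the sources used here. The libraries are unstranded, so reads of overlapping or antisense genes cannot be told apart, and copies (C4b and C4a, the Ifit family) and overlapping imprinted genes (Usp29) are uncertain. Totals ran from 4.05 to 15.8 M counts, and the counts of 9 pairs of libraries within groups differed by more than sampling noise (chi-square per degree of freedom 2.86 to 44.8, genes with at least 20 counts).

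Genes were filtered with filterByExpr (minimum count 10, minimum total 15), scaled by TMM and tested with edgeR 4.0.16 (quasi-likelihood, R 4.3.3), with Benjamini-Hochberg adjustment over all genes tested and a threshold of 0.05. CPM in the text are TMM-scaled unless said to be of the library total. The scripts were tested on simulated data. Effects were compared between regions and experiments by interaction terms. Mouse numbers tie the same animals across regions, and deviations from the group means correlated between libraries of a mouse by 0.216 on average with the SVZ (-0.0653 to 0.472) and 0.115 with motor cortex (-0.0755 to 0.436). Alternatives were DESeq2 1.42.0, relative log expression factors, no filter, limma-voom with quality weights (limma 3.58.1), all 16 caudate putamen libraries in 1 fit, leaving out each library, and the mouse as a block. DESeq2 without PBS 76 was added after seeing the data.

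Named genes were the 14 with the smallest p in each direction among genes without overlap and with a mean of at least 5 CPM, up to 4 per list with the smallest p under 0.05, and the 2 of highest mean per list; the pathway lists of medium spiny neurons were given in full. Further genes (Slc17a7 and others) were named for their role after their values were seen. The members and the 36 lists were chosen with earlier results of these data known. Promoter sequences are from RefSeq, and gene positions from GRCm38. Results for a few genes are not reported here.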

Additional observations from a re-analysis of the deposited data

Results flagged for a closer look

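In groups of 4 libraries, a single library far from the others was looked for with Dixon's criterion in the PBS values of 104 genes and all 36 lists. It was met by 22 of 140 sets of values (16 genes and 6 lists). PBS 76 was the library that stood apart in all but 3 of these. The genes were partly chosen for their values in these libraries, and all sets share the same 4 libraries. The number of sets is therefore not compared with a rate given by chance.

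PBS 76 stood low among the PBS libraries for the medium spiny neuron genes Gng7 (1167 CPM), Tmem158 (216 CPM) and Ppp1r1b (2003 CPM) and for Plxdc1 (27.5 CPM). It stood high for the myelin and oligodendrocyte genes Mbp (20064 CPM), Fa2h (171 CPM) and Sox10 (175 CPM), for C4b (450.1 CPM), Clu (1775 CPM), Ctsl (143 CPM) and Plcl1 (79.6 CPM), and for Ttr (3230.2 CPM), Enpp2 (3223 CPM) and Foxj1 (25.5 CPM). Its summed CPM stood high for mature myelin (47731), the oligodendrocyte lineage (1475), meningeal fibroblasts (955), ependymal cells (215) and choroid plexus (7026). PBS 80 stood high for Zdbf2 (30.5 CPM) and low for the sum of immediate early genes (1798 CPM), and PBS 72 stood high for Slc17a7 (147 CPM).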

How the results depend on the processing

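edgeR called 0 genes between YMP and PBS in the caudate putamen under every alternative that used it, as did limma-voom, whereas DESeq2 called 70, and 88 without PBS 76. Genes higher at an unadjusted p under 0.05 numbered 745 with limma-voom, 304 with all 16 libraries, 296 with DESeq2 without PBS 76 and 248 to 775 with 1 library left out (307 without YMP 73, 270 without YMP 77, 248 without YMP 81 and 775 without PBS 84). Genes lower numbered 592 with DESeq2 without PBS 76 and 415 to 1279 with 1 library left out (415 without YMP 77 or without YMP 81). For the difference to the SVZ, DESeq2 called 14 genes, and with the mouse as replicate block edgeR called 0 (762 genes at an unadjusted p under 0.05, against 632 without the block). For the difference to motor cortex, DESeq2 called 1 gene, the replicate block gave 0 (777 against 678), and leaving out 1 library gave 0 to 3, the 3 without PBS 72. For the difference to the diet effect, DESeq2 called 76, the fit with no filter 1, and leaving out 1 library 0 to 1 (1 without PBS 72 and without aDR 64). The replicate block changed no other call.

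The log2 change turned for Isl1 (-0.0544 without PBS 72, -0.0413 without YMP 73; -0.0544 to 0.12 with 1 library left out), Eya1 (-0.140 without YMP 73, up to 0.28), Sp9 (-0.0254 without PBS 72, -0.0539 without PBS 76, -0.0495 with DESeq2 without PBS 76), Grik3 (-0.0525 with limma-voom, -0.0778 without PBS 76, up to 0.22 with 1 library left out, -0.0693 with DESeq2 without PBS 76), Upb1 (-0.0910 without YMP 73, up to 0.28) and Slc17a7 (1.18 with limma-voom, 1.86 without PBS 72, down to -2.04 with another library left out). None of these 6 genes had a p under 0.05. With 1 library left out, list medians ran from -0.015 to 0.28 for interneurons, -0.0048 to 0.14 for potassium channels, -0.011 to 0.20 for endothelium, -0.067 to 0.085 for the ribosome, -0.13 to 0.017 for cholesterol synthesis and -0.0023 to 0.17 for the clock, all of which turned sign. They ran from 0.029 to 0.20 for glucocorticoid response and 0.071 to 0.33 for immediate early genes (0.42 with limma-voom), and the cortical neuron median was 0.14 without PBS 72. The cause of these differences was not tested. The least deep library held 4.05 M counts, so counting error is largest there for genes of low level.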
